A study of Mus musculus with 6 samples.

Results

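A set of 9 genes that mark tuft cells or their sensing machinery were followed through single-nucleus RNA-seq of mouse small intestinal organoids. The genes are Pou2f3, St18, Trpm5, Rgs13, Dgki, Lrmp, Sh2d6, Dclk1 and Avil. They were chosen by name, as 9 of the 31319 genes in the files, and all 9 Ensembl identifiers matched a mouse symbol. Organoids were grown from jejunal crypts of C57BL/6 mice aged 8 to 12 weeks and were kept in medium conditioned by mouse embryonic fibroblasts (MEFs). The fibroblasts were either quiescent after serum deprivation, which gave quiescent conditioned medium (QCM), or senescent after X-ray irradiation or doxorubicin, which gave senescent conditioned medium (SCM). There were 3 samples per medium. The medium was serum-free, concentrated and mixed with organoid growth medium in both groups, and the comparison asked how factors secreted by senescent cells change the epithelium. An organoid holds epithelium only, so the blood cells and nerves that tuft cells signal to in the gut are missing from it.

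Tuft cells are rare chemosensory cells of the intestinal epithelium. They read luminal cues with a cascade shared with taste cells, in which G-protein-coupled receptors drive phospholipase C, calcium leaves internal stores, and the cation channel Trpm5 opens. In the gut they are known for releasing interleukin 25 and leukotrienes in response to parasites, and they arise from stem cells under the control of the transcription factor Pou2f3.

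The files held 38154 nuclei in 15 deposited clusters, numbered 0 to 14 and not named. Samples had 430 to 10833 nuclei and 4071926 to 41035733 unique molecular identifiers (UMIs, counted RNA molecules). The median UMI count per nucleus was 8260 in QCM replicate 1 and 1578 to 3156.5 in the other 5 samples, and SCM replicate 1 was the sample with 430 nuclei. QCM replicate 1 and SCM replicate 1 shared 175 cell barcodes, and no other pair of samples shared more than 36. Barcodes of these 2 libraries began with 48 distinct 7-base starts, against 959 to 960 in the other libraries. With the 192 endings seen in the 2 libraries, 9216 barcodes can be formed, and libraries of their sizes would then share 176.9 barcodes if drawn independently. Some results between media are given below also without these libraries, singly or together. In sums per sample, the 5 blood cell markers in the files reached 0.982 to 3.13 CPM and the 5 fibroblast markers 0.288 to 2.36 CPM, where CPM is the count per 1000000 UMIs.

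The 9 genes lie on 6 chromosomes (GRCm38, GENCODE M21), and all are protein-coding. The 2 transcription factors are Pou2f3 (chr9:43123939-43210369, minus strand), a POU-domain factor without which tuft cells do not form, and St18 (chr1:6487231-6860940, plus strand), a zinc finger factor of the Myt1 family that is also used in endocrine and nerve cells. The sensing and signalling genes are Trpm5 (chr7:143069153-143094642, minus strand), a calcium-activated channel, and Rgs13 (chr1:144138654-144177372, minus strand), which shortens G-protein signals. Dgki (chr6:36846022-37300184, minus strand) encodes a kinase that removes diacylglycerol, a product of phospholipase C. Lrmp (chr6:145115653-145174934, plus strand) encodes a membrane protein of the endoplasmic reticulum that is well known from lymphocytes, and Sh2d6 (chr6:72513641-72521707, minus strand) an SH2-domain adaptor. The cytoskeletal genes are Dclk1 (chr3:55242364-55539068, plus strand), a microtubule-binding kinase and the most used tuft marker, and Avil (chr10:127000709-127020994, plus strand), an actin-binding protein of the villin family.

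Some of these genes share their locus. Avil overlaps Tsfm over 9423 bases and Trpm5 overlaps Tssc4 over 1845 bases, both on the opposite strand. Lrmp overlaps Casc1 on the opposite strand over 101 bases. Dgki holds the antisense gene 1700111E14Rik over 48737 bases and the pseudogene Gm7452 over 3087 bases, both on the opposite strand. Dclk1 shares 2132 bases with Gm19817, the only one of these overlaps on the same strand, and lies opposite the antisense gene Gm42609 over 25666 bases and Gm21954 over 10226 bases. The 3 partners of Dclk1 had 14, 37 and 9 UMIs in all nuclei, 1700111E14Rik had 131, Gm7452 had 9 and Casc1 had 314. The sources used here name Cell Ranger for the counting and do not state how strand was used. Each partner has its own count, and whether reads of an antisense partner entered a gene's count was not tested. Tsfm and Tssc4 had 55.5 and 17.1 CPM in cluster 11 and 44.1 and 18.6 CPM in all nuclei outside it. Avil and Trpm5 had 72.4% and 71.4% of their UMIs outside clusters 9, 10 and 11, the largest such shares of the 9 genes, and the part of overlapping reads in this was not tested.

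The stretches just upstream of 3 of these genes are shown because these genes were highest in the same cluster, and because Pou2f3 belongs to a family of factors that binds the octamer ATGCAAAT. Promoters of 6 of the 9 genes (Avil, Trpm5, Rgs13, Dclk1, Sh2d6 and Dgki) were in the RefSeq table for GRCm38.p6, with 7 starts in all. No octamer was found on either strand of the 300-base windows of these 7 starts, against 1.74% of all 32851 promoters in the table. The 7-base core ATGCAAA, which lies within the octamer, was found in 1 of the 7 windows, that of Avil, against 4.63% of all promoters. The 250 bases before the start are printed 5′ to 3′ on the gene's strand. They cover chr10:127000459-127000708 (plus strand) for Avil, chr7:143094643-143094892 (minus strand) for Trpm5 and chr1:144177373-144177622 (minus strand) for Rgs13. Capitals mark the 7-base core on either strand. The match is a description of the letters and no sign of binding.
Avil: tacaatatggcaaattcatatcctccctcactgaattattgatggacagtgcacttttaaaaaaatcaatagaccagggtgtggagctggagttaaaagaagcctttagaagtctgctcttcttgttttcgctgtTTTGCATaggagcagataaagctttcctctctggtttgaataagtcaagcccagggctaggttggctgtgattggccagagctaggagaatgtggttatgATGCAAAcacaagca
Trpm5: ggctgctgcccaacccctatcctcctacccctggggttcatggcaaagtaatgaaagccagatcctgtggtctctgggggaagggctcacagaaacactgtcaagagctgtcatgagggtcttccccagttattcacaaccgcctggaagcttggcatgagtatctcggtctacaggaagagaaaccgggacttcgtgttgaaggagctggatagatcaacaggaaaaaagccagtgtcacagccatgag
Rgs13: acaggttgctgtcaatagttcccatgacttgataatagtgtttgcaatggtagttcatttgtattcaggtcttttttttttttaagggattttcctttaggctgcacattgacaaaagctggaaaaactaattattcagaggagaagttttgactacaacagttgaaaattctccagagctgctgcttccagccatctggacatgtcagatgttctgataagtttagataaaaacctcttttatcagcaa

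Across the clusters, all 9 genes were highest in cluster 11, a group of 366 nuclei (0.959% of all). For 7 of the 9, every sample of cluster 11 lay above every sample of the next cluster, and the exceptions were St18 and Lrmp. The deposited clusters were computed from the expression of all genes, these included, so no test sets cluster 11 against the rest. Levels are the mean over samples with at least 10 nuclei of a cluster, and 5 samples met this in clusters 9, 10 and 11, since SCM replicate 1 had 4 nuclei of cluster 11.

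Pou2f3 stood at 289 ± 166 CPM (SD, n = 5) in cluster 11, 22.2-fold above cluster 6, the next in order. In cluster 6 it was 13.03 ± 4.80 CPM (SD, n = 6) and in cluster 9 it was 12.2 ± 8.20 CPM (SD, n = 5), so those clusters did not differ beyond their spread. Pou2f3 was the gene most often seen in cluster 11, with a UMI in 57.4% of its nuclei (Wilson 95% interval 52.3 to 62.3%). In cluster 0, the largest cluster, 0.273% of nuclei had a Pou2f3 UMI. With each nucleus thinned to 1000 UMIs, the shares were 28.7% in cluster 11 and 0.0510% in cluster 0. St18 was 387 ± 248.8 CPM (SD, n = 5) in cluster 11 and 206 ± 81.7 CPM (SD, n = 5) in cluster 9, and these samples overlapped. Cluster 9 in turn lay above cluster 6, the third for St18, in every sample. It was 32.4 ± 14.5 CPM (SD, n = 6) in cluster 6 and 32.2 ± 6.23 CPM (SD, n = 5) in cluster 10, values that did not differ beyond their spread.

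Among the sensing genes, Dgki was 520 ± 336 CPM (SD, n = 5) in cluster 11 and 30.6 ± 15.7 CPM (SD, n = 5) in cluster 9. Rgs13 was 142 ± 91.4 CPM (SD, n = 5) in cluster 11 and 13.8 ± 9.84 CPM (SD, n = 5) in cluster 9. The channel gene Trpm5 was 31.8 ± 17.2 CPM (SD, n = 5) in cluster 11, where 41 UMIs in 28 nuclei carried it, and at most 2.00 ± 2.42 CPM (SD, n = 6) elsewhere, in cluster 7. Lrmp was 56.0 ± 41.7 CPM (SD, n = 5) in cluster 11 and 4.27 ± 5.04 CPM (SD, n = 5) in cluster 9, and its lowest sample in cluster 11 lay below its highest in cluster 9. Sh2d6 was 44.8 ± 29.1 CPM (SD, n = 5) in cluster 11 and 45.5-fold lower in the next cluster, but it had 100 UMIs in all nuclei together.

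Of the cytoskeletal genes, Dclk1 was 240 ± 159 CPM (SD, n = 5) in cluster 11 and 9.02 ± 12.97 CPM (SD, n = 5) in cluster 9, a ratio of 26.6. Avil was 59.6 ± 33.4 CPM (SD, n = 5) in cluster 11 and 4.87 ± 3.18 CPM (SD, n = 6) in cluster 7, a ratio of 12.2. Below their second cluster, 7 of the 9 genes had a mean under 5 CPM in every other cluster, and the exceptions were St18 and Pou2f3.

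**Figure D1:**
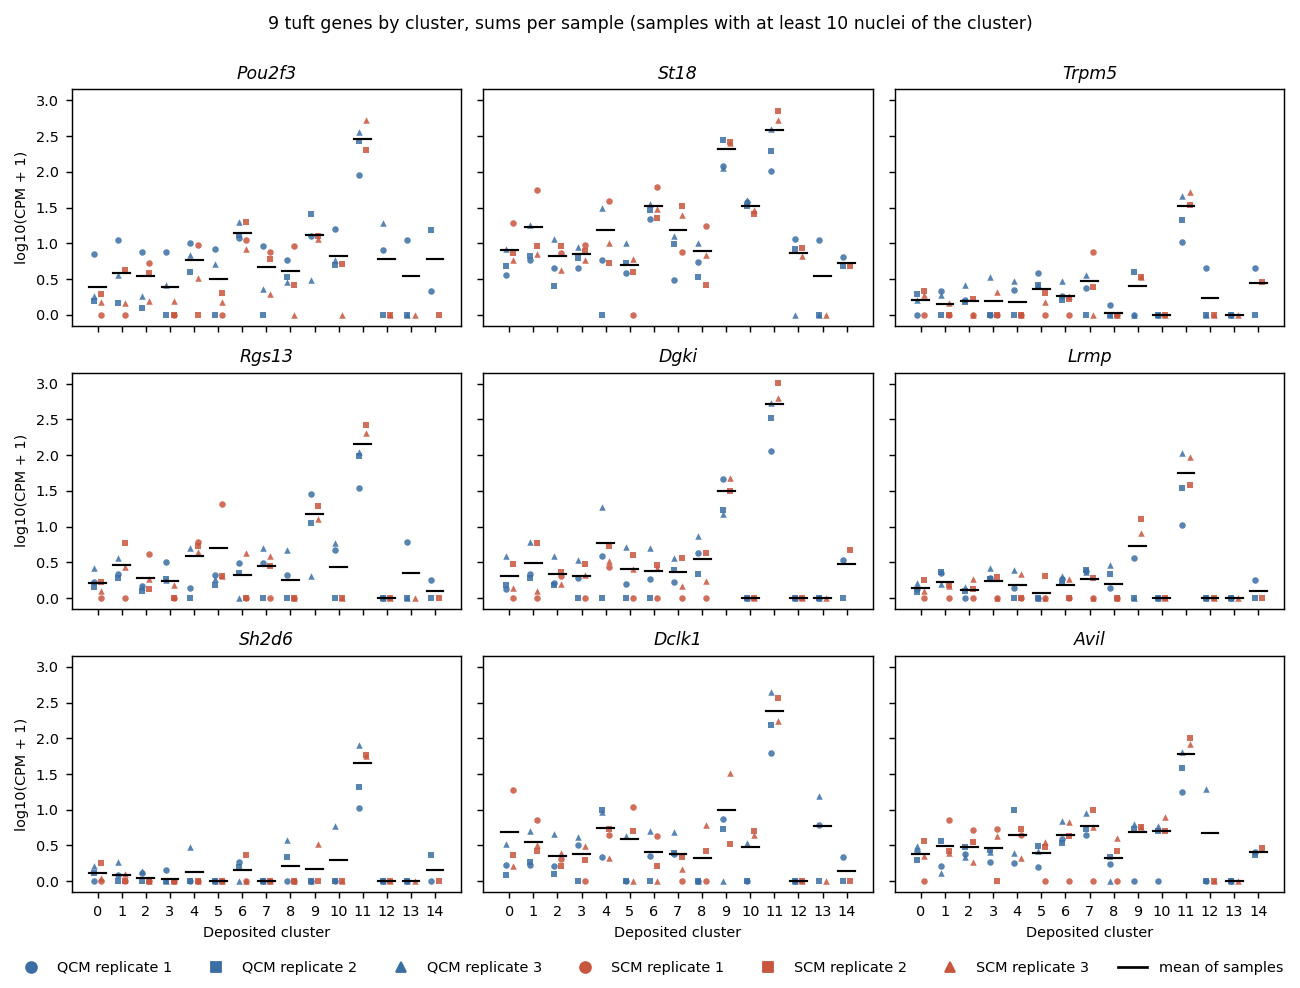
Level of each gene as log10(CPM + 1) against the deposited cluster, one point per sample with at least 10 nuclei of the cluster (blue QCM, red SCM, symbol by replicate), with black bars at log10 of the mean CPM + 1. All 9 genes peak in cluster 11, and St18 has a further high level in cluster 9 (206 CPM).

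The label of cluster 11 was checked with 20 tuft markers that are not among the 9 genes, of which 19 were in the files. In cluster 11, 5 of the 19 were at 5 CPM or more and at least 2-fold above the other nuclei, and 2 were at 0. None of the 14 enteroendocrine markers passed that limit in cluster 11, and none of the 7 enterocyte, 7 goblet, 6 Paneth or 6 stem cell markers did. Cluster 11 is therefore called tuft-like, with the reservation that its nuclei were unlike each other. Among 17313 genes with at least 100 UMIs, ranked by fold in cluster 11 over the other nuclei with 1 CPM added, Dgki, Dclk1, Rgs13 and Pou2f3 took places 1 to 4, Sh2d6, Lrmp and St18 places 6 to 8, Avil place 13 and Trpm5 place 17.

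A small number of nuclei carried most of the signal. Of the 366 nuclei in cluster 11, 57 had a UMI of none of the 9 genes, 224 had 1 gene, 39 had 2, 6 had 3, 8 had 4, 5 had 5, 5 had 6, 3 had 7, 11 had 8 and 8 had all 9. From 3 to 7 genes there were 3 to 8 nuclei each, and 8 genes were more frequent than any number from 3 to 7, whereas outside cluster 11 the counts fell from 2198 nuclei with 1 gene to 139 with 2, 19 with 3 and 16 with 4 or more. The limit of 4 genes used below was chosen after these counts were seen. The 40 nuclei with at least 4 genes (10.9% of cluster 11) held 80.0% of the cluster's UMIs of the 9 genes, at 3766 CPM summed over the 9, and 33.1% of its UMIs of all genes. They were selected by UMIs of these 9 genes, so a larger share of the 9 is built into the choice and these values are a description. The 224 nuclei with 1 gene held 11.6%, at 418 CPM. Among those 224, the gene was Pou2f3 in 137 and Dgki in 62, and Sh2d6 was the gene in none.

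Detection grows with depth, and the nuclei differed in it. The nuclei with at least 4 genes had a median of 4161 UMIs (range 1322 to 83345), against 1906 in those with 1 gene and 1883 in those with none. Thinned to 1000 UMIs each, which 326 of the 366 nuclei reached, 28.7% of cluster 11 nuclei had Pou2f3, 18.4% Dgki, 9.92% St18 and 2.75 to 6.53% each of the other 6 genes. Without thinning, the shares were 57.4%, 29.2%, 15.6% and 6.56 to 12.0%.

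Within cluster 11, the 19 tuft markers outside the 9 genes had 149 UMIs in the 40 nuclei with at least 4 genes, 20 in those with 2 or 3, 46 in those with 1 and 15 in those with none, or 309, 99.6, 72.9 and 103 CPM. Nuclei of clusters other than 9 and 11 with under 4 genes had 59.8 CPM. The markers were spread unequally. Bmx, a tyrosine kinase, had 24 UMIs in those 40 nuclei, 1 in the nuclei with 2 or 3 genes and 0 in those with 1 gene or none. Hmx2, a homeobox factor, had 8 UMIs in the 40 nuclei and 0 in all other nuclei of cluster 11, and so did Plcb2, the phospholipase of the taste cascade, with 5. In the 40 nuclei, 10 of the 19 tuft markers were at 5 CPM or more and at least 2-fold above the nuclei outside cluster 11. In the nuclei with 2 or 3 genes, 1 gene and none, 1, 1 and 2 markers did so, but 5 CPM took 3 UMIs in the 40 nuclei and 2, 4 and 1 UMIs in the others in that order, so these counts cannot be set against each other. The remaining markers varied. Hpgds, a prostaglandin synthase, had 32, 8, 31 and 5 UMIs in the nuclei with at least 4 genes, 2 or 3, 1 and none, and Ltc4s, a leukotriene synthase, had 7, 1, 4 and 1. Il17rb, the receptor for interleukin 25, had 20.7 CPM in the 40 nuclei and 29.9, 7.92 and 27.5 CPM in the same order of the other nuclei. Kctd12 had 29, 2, 1 and 5 UMIs. Bmx, Hmx2, Plcb2 and these 4 were chosen after their values were seen. Both the genes and the markers took part in the deposited clustering, so these counts are a description.

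The genes that led the fold against nuclei outside cluster 11 were read for the same classes. In the 40 nuclei the first 4 were Nebl (207 CPM), 1700111E14Rik (135 CPM), Plxna4 (106 CPM) and Fyb (118 CPM). Kcnh8, a potassium channel gene, was among the leading genes both in the 40 nuclei (149 CPM) and in the 57 nuclei with none of the 9 genes (103 CPM, in 13 of the 57). In the 224 nuclei with 1 gene, no gene outside the 9 rose above 4.28-fold on a scale with 5 CPM added.

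**Figure D2:**
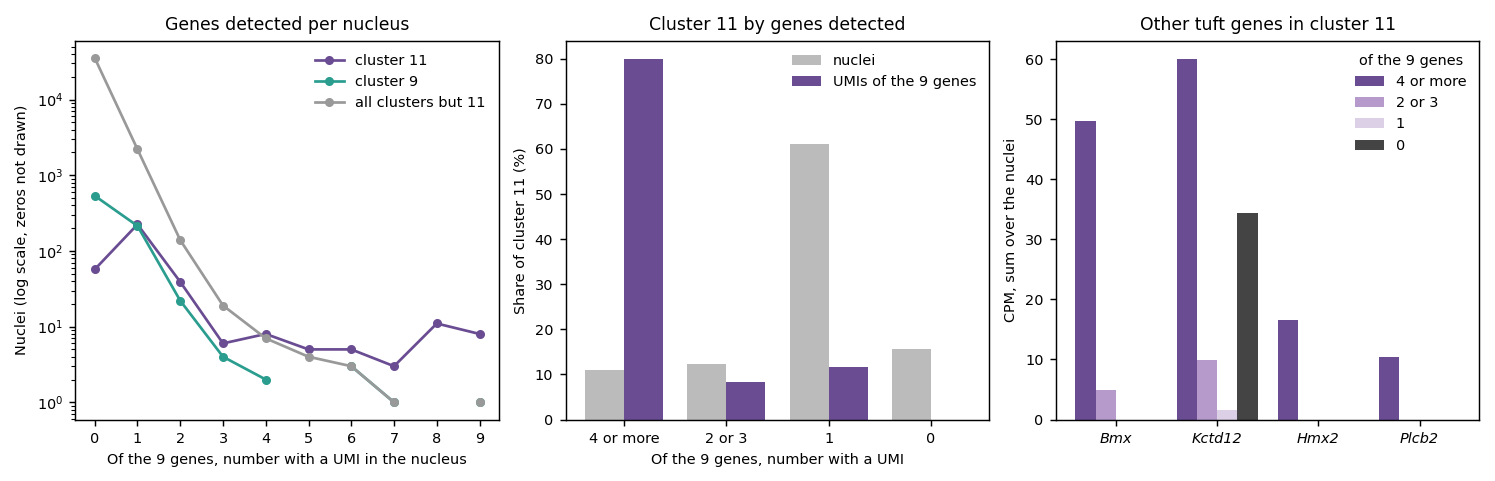
Left, number of nuclei (log scale) against how many of the 9 genes had a UMI, for cluster 11, cluster 9 and all clusters but 11. Middle, share of cluster 11 nuclei and of its UMIs of the 9 genes, by genes detected: 10.9% of nuclei held 80.0% of the UMIs. Right, CPM summed over the nuclei of each class for 4 tuft genes outside the 9, chosen after their values were seen. Within cluster 11, Hmx2 and Plcb2 are at 0 outside the nuclei with 4 or more genes, and Kctd12 is also present in the nuclei with none (34.4 CPM).

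Detection of one gene went with detection of another to a different extent for each gene. In cluster 11, all 24 nuclei with Sh2d6 had at least 1 other of the 9 genes, and so did 55 of 57 with St18, 27 of 28 with Trpm5, 40 of 44 with Rgs13 and 30 of 33 with Lrmp. Avil did so in 37 of 44 and Dclk1 in 33 of 41. Dgki was seen with another gene in 45 of 107 nuclei and Pou2f3 in 73 of 210. These shares depend on how often the other genes were seen, and Pou2f3, the most frequent, is a possible partner of every gene but itself. The level expected from detection alone was not computed. Outside clusters 9 and 11, 10.8 to 23.1% of the nuclei with a given gene had another of the 9, and most held 1 UMI of it, for example 171 of 176 nuclei with Dclk1 and 397 of 434 with Pou2f3.

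The genes shared with the enteroendocrine clusters were examined next. Enteroendocrine cells are the hormone-producing cells of the epithelium. Clusters 9 and 10 were enteroendocrine-like, with 13 and 9 of the 14 markers at 5 CPM or more and at least 2-fold above the other nuclei, and with 2402 and 1460 CPM summed over the 14, against 305 CPM in cluster 11. St18 was the gene of the 9 most plainly shared. Cluster 9 held 31.2% of all St18 UMIs and cluster 11 held 20.4%, and a UMI of St18 was present in 29.2% of cluster 9 nuclei (Wilson 95% interval 26.1 to 32.4%) against 15.6% in cluster 11 (12.2 to 19.6%) and 1.35% in cluster 0. Thinned to 1000 UMIs, these were 15.5% in cluster 9 and 9.92% in cluster 11. Within cluster 9, 195 of the 228 nuclei with St18 (85.5%) had no UMI of the other 8 genes, so St18 was mostly detected there without the rest. The 228 nuclei had a median of 4751 UMIs, and genes of low count can be missed at that depth.

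Counts of the 9 genes in clusters 9 and 10 are given side by side. Cluster 10 held 49 UMIs of St18 in 35 of its 483 nuclei, and no UMI of Dgki, Trpm5 or Lrmp, which allows up to 0.621% of its nuclei to have a UMI of each. This limits nuclei with a UMI and not nuclei that express the gene, since at a median of 1903 UMIs per nucleus most expressing nuclei can be missed. In cluster 11 itself, 7.65% of nuclei had a UMI of Trpm5 and 9.02% one of Lrmp. Cluster 9 held 112 UMIs of Dgki in 27 nuclei, 47 of Rgs13 in 8, 42 of Pou2f3 in 19 and 36 of Dclk1 in 7. Of these, 7 nuclei of cluster 9 that had at least 4 of the 9 genes held 85 of the 112 Dgki UMIs, 45 of the 47 Rgs13 UMIs, 33 of the 36 Dclk1 UMIs and 20 of the 42 Pou2f3 UMIs.

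Markers of both cell types were found in these 7 nuclei. All 7 had UMIs of Rfx6, a factor of endocrine fate, and of the granin Chgb, and 5 had Pax6, another endocrine factor. Summed over the 14 enteroendocrine markers they had 2914 CPM, against 2382 CPM in the other 775 nuclei of cluster 9 and 313 CPM in the 40 nuclei of cluster 11. In those 40, the deepest nucleus, from QCM replicate 2 with 83345 UMIs, held 91 of the 151 enteroendocrine UMIs and 20 of the 24 UMIs of Rfx6, and the other 39 had 150 CPM. Of the 19 tuft markers, 11 had a UMI in the 7 nuclei, with 48 UMIs or 354 CPM in all. A single UMI was 7.38 CPM there, so the limit of 5 CPM says nothing in them. Gnat3, the taste G protein gustducin, had 10 UMIs in 2 of the 7 against 2 UMIs in all of cluster 11, and Hpgds, Kctd12 and Il17rb had 9, 8 and 6 UMIs in the 7. The 7 came from 4 samples, 1 from QCM replicate 1, 2 from QCM replicate 2, 1 from SCM replicate 2 and 3 from SCM replicate 3. Their median was 17581 UMIs, against 2148 in the rest of cluster 9 and 4161 in the 40 nuclei of cluster 11, and no doublet caller was run, so the part of droplets with 2 nuclei in this was not tested.

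The other 9 nuclei with at least 4 of the 9 genes lay in clusters 6, 7 and 14. Those in clusters 7 and 14 were very deep (51346 to 278027 UMIs), and their summed level of the 9 genes was 38.4 to 186 CPM, against a median of 5855 CPM in the 40 nuclei of cluster 11. In these 9 nuclei, 6 of the 19 tuft markers had a UMI, with 86 UMIs or 81.3 CPM in all.

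**Figure D3:**
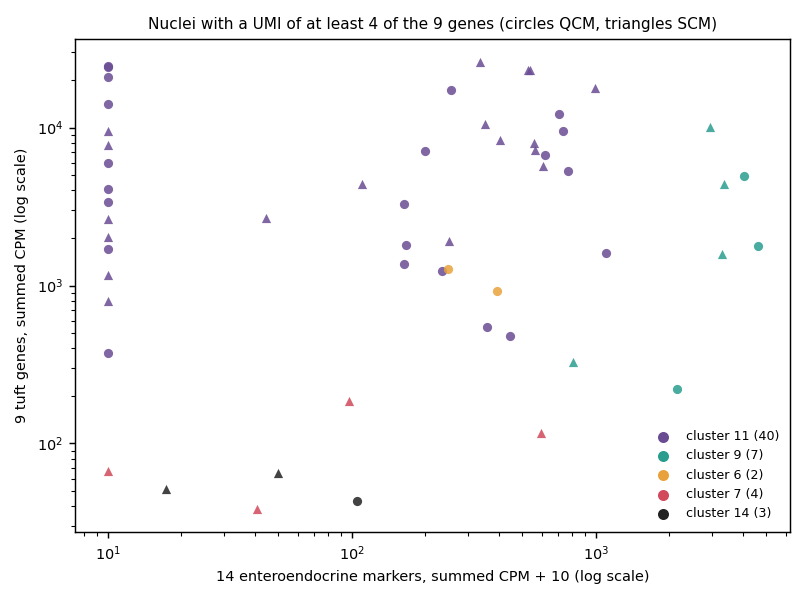
Summed CPM of the 9 genes against summed CPM + 10 of 14 enteroendocrine markers, both on log scales, for the 56 nuclei with a UMI of at least 4 of the 9 genes, coloured by deposited cluster (circles QCM, triangles SCM). Nuclei of cluster 9 lie towards the right, 1 of them within the range of cluster 11, and the deep nuclei of clusters 7 and 14 lie at the bottom, at 38.4 to 186 CPM of the 9 genes.

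Most UMIs of the 9 genes were outside the tuft-like cluster. Cluster 11 held 37.6% of the 6043 UMIs, cluster 9 held 16.9%, cluster 10 held 1.17% and the other clusters 44.3%. The share in cluster 11 was highest for Dgki (66.4%), Dclk1 (58.9%) and Sh2d6 (58.0%), and lowest for St18 (20.4%) and Avil (21.8%). It varied between samples, from 1.55% in SCM replicate 1 and 16.5% in QCM replicate 1 to 39.3 to 50.1% in the other 4. Summed over the 9 genes, the UMIs of all nuclei therefore came mainly from outside cluster 11 in every sample but SCM replicate 2 (50.1% in cluster 11). This holds most of all in the 2 libraries numbered 1. Single genes differed from the sum. In the other 4 samples, cluster 11 held 58.2 to 81.8% of the Dgki UMIs and 15.3 to 32.5% of the St18 UMIs. In these bulk sums, fewer cells of a type and less RNA per cell cannot be told apart.

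Between media, no difference in the sums over all nuclei passed the test for any of the 9 genes. The edgeR quasi-likelihood test (n = 3 samples per medium) called 0 of the 9 at an adjusted p of 0.05, where the background was 0% of the 19046 genes tested. No gene of the 9 passed an unadjusted p of 0.05, against 866 of all genes, and DESeq2 called 0 of the 9 (19 genes of all rose and 1 fell), and voom with limma called 0. Samples of the media overlapped for all 9 genes, where 7.08% of the genes tested did not overlap. Adjusted p-values ran from 0.927 to 0.999. All log2 fold changes are SCM relative to QCM and are given with the standard error (SE).

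Pou2f3 was 8.77, 5.68 and 8.33 CPM in QCM replicates 1, 2 and 3 and 5.65, 5.92 and 5.04 CPM in the SCM replicates. QCM replicate 2 lay between the SCM samples, of which 2 were below all QCM samples, and the log2 fold change was -0.65 ± 0.31 (SE; edgeR adjusted p = 0.927). It was -0.39 without QCM replicate 1 and -0.87 without QCM replicate 2. St18 was 8.63, 15.6 and 24.6 CPM in QCM and 30.5, 25.6 and 19.6 CPM in SCM, with a log2 fold change of 0.49 ± 0.33 (SE; edgeR adjusted p = 0.929). It was 0.26 without QCM replicate 1 and 0.88 without QCM replicate 3. QCM replicate 3 lay between the SCM samples for St18. Dgki ranged from 3.19 to 13.1 CPM in QCM and from 0.982 to 14.6 CPM in SCM, so each medium had samples at both ends. Dclk1 was 1.56, 2.39 and 9.84 CPM in QCM and 4.67, 5.58 and 3.51 CPM in SCM, and QCM replicate 3 alone was above all SCM samples. For the other 5 genes, log2 fold changes lay between -0.54 (Sh2d6) and 0.46 (Avil), with SEs of 0.41 to 0.78. With samples left out in turn, Avil ran from 0.15 to 0.73 and Trpm5 from -0.67 to -0.21.

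The number of nuclei in cluster 11 was compared as a share of each sample. It was 1.11%, 0.883% and 1.32% in QCM and 0.930%, 0.597% and 0.794% in SCM. The QCM samples averaged 1.10 ± 0.219% (SD, n = 3) and the SCM samples 0.774 ± 0.168% (SD, n = 3), a difference of -0.33 percentage points. SCM replicate 1 lay above QCM replicate 2, so the media overlapped. Within each of the 3 replicate numbers the SCM sample was the lower one, but the samples were not treated as paired. The value of SCM replicate 1 rests on 4 of its 430 nuclei. The two-sided exact permutation p was 0.2, where 3 samples against 3 cannot go below 0.1.

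Within cluster 11 the 5 samples with at least 10 nuclei entered (n = 3 QCM and 2 SCM). There edgeR called 0 of the 9 genes, on a background of 0% of the 6634 genes tested, and 278 of all genes and 2 of the 9 (Rgs13 and St18) passed an unadjusted p of 0.05. All 9 fitted log2 fold changes were above 0, with a median of 0.63, where the median of all genes tested was -0.00050. These are not 9 separate observations, since 40 nuclei held 80.0% of the cluster's UMIs of the 9 genes. With all 6 samples entered, 7 of the 9 genes were tested and 6 of these were above 0. Of the 7, 0 passed an unadjusted p of 0.05 in edgeR, against 345 of all genes. With the 5 samples, the sign was not stable for 3 of the 9: Dclk1 turned without QCM replicate 1 (-0.29), QCM replicate 2 (-0.11) or SCM replicate 2 (-0.43), Lrmp without QCM replicate 1 (-0.26), QCM replicate 2 (-0.03) or SCM replicate 3 (-0.60), and Pou2f3 without SCM replicate 3 (-0.46). DESeq2 and voom called 0 genes in cluster 11. All SCM samples lay above all QCM samples for 4 of the 9 (Rgs13, St18, Dgki and Avil), against 13.3% of the genes tested.

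Rgs13 was 33.5, 97.5 and 111 CPM in QCM replicates 1, 2 and 3 and 266 and 200 CPM in SCM replicates 2 and 3. Its log2 fold change was 1.41 ± 0.44 (SE; edgeR adjusted p = 0.824), and 1.08 in replicates 2 and 3 alone. In QCM replicate 2, most Rgs13 UMIs of cluster 11 (22 of them) lay in the nucleus with 83345 UMIs. That nucleus also held 40 UMIs of Dclk1, 34 of Dgki and 24 of St18, and its part in these levels was not tested. St18 was 103, 195 and 392 CPM in QCM and 719 and 527 CPM in SCM, with a log2 fold change of 1.28 ± 0.52 (SE; edgeR adjusted p = 0.824), and 0.96 in replicates 2 and 3 alone. Both genes did pass when the replicate number was added as a block, with an adjusted p of 0.0348 for each in edgeR. Of all genes, 9 rose and 26 fell with the block. SCM replicate 1 was not in this fit, so QCM replicate 1 stood alone in its block. Only replicates 2 and 3 carried the contrast, and few degrees of freedom were left. Over all nuclei, the replicate 2 samples deviated together (correlation of 0.46) and the replicate 3 samples did not (-0.09). Dgki was 112, 333 and 527 CPM in QCM and 1010 and 619 CPM in SCM, and Avil was 16.7, 37.0 and 62.4 CPM against 99.8 and 81.9 CPM. QCM replicate 1 was the lowest sample for all 9 genes, and its cluster 11 nuclei had a median of 8592 UMIs against 1521 to 3198 in the other 4. Pou2f3 was 90.8, 266 and 361 CPM in QCM and 200 and 527 CPM in SCM, so the media overlapped.

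**Figure D4:**
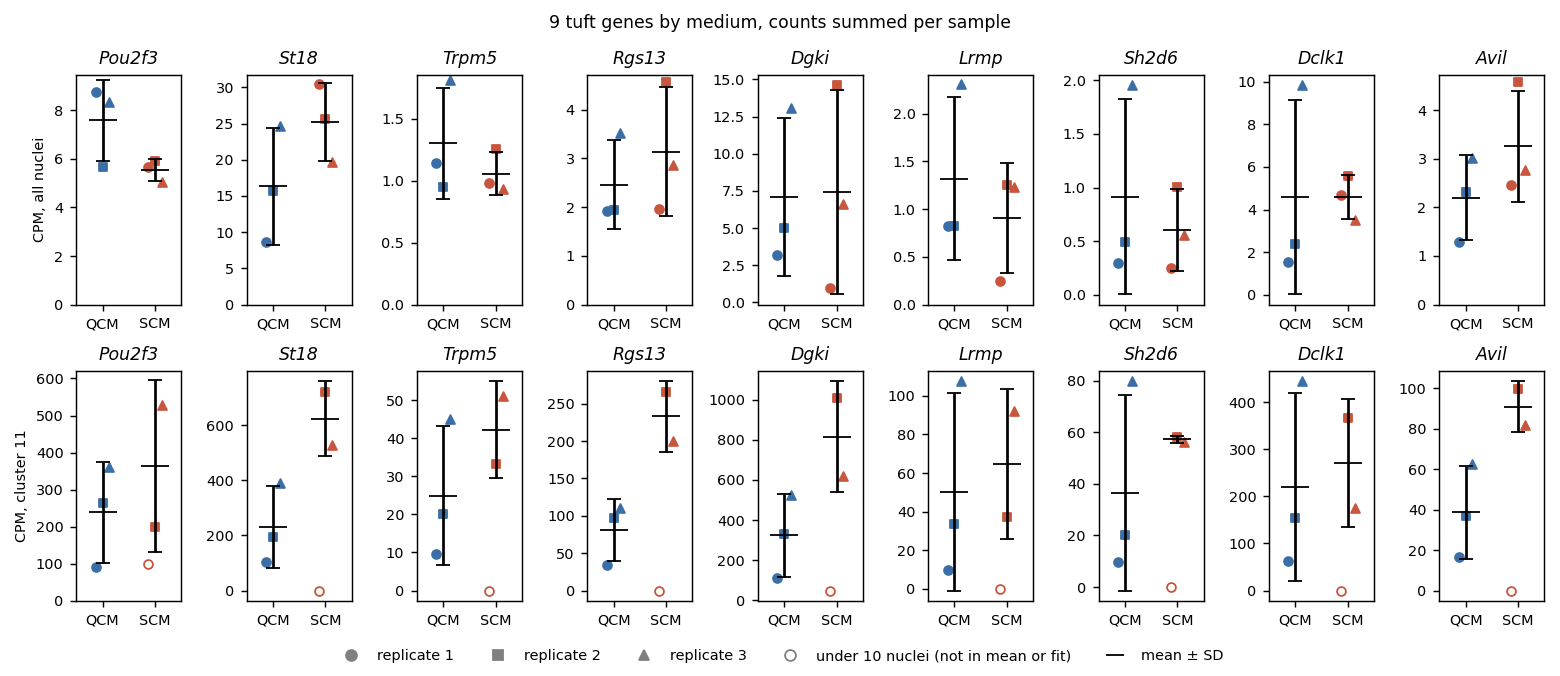
CPM of each gene in sums over all nuclei (top) and over cluster 11 (bottom), one point per sample with mean and SD by medium; the open circle is SCM replicate 1, which had 4 nuclei of cluster 11 and is outside the mean and the fit. In the top row the media overlap for all 9 genes, and in the bottom row QCM replicate 1 is the lowest of the 5 samples.

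Markers of other cell types also differed between these 5 samples of cluster 11. Summed over the 14 enteroendocrine markers, the level was 332, 420 and 350 CPM in QCM replicates 1, 2 and 3. In SCM replicates 2 and 3 it was 104 and 287 CPM, below all QCM samples. Of the 14, 3 to 6 were at 0 in each sample. In QCM replicate 2, 91 of these UMIs lay in 1 nucleus, which held 83345 of the 297503 UMIs of the cluster there. That sample's level therefore rests largely on 1 nucleus. With the UMIs of that nucleus left out, the level falls below that of SCM replicate 3, and the media then overlap. QCM replicate 1, the lowest sample for all 9 genes, was the highest for enterocyte markers (3631 CPM, against 328 to 1730 CPM in the other 4), Paneth markers (2838 against 353 to 1388 CPM) and goblet markers (2240 against 630 to 1704 CPM). Over all nuclei it was also the highest sample, at 4000, 2633 and 2011 CPM in the same order, so this was not particular to cluster 11. Stem cell markers were 959, 2047 and 908 CPM in QCM and 3146 and 1474 CPM in SCM, which overlap. The 19 tuft markers outside the 9 genes were 76.5, 151 and 225 CPM in QCM and 170 and 220 CPM in SCM, which overlap too. Blood cell markers were at 0 to 3.47 CPM and all 5 fibroblast markers were at 0. The part of other cell types' RNA in the levels of the 9 genes was not tested.

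The mix of nuclei inside cluster 11 was compared between samples. Nuclei with at least 4 of the 9 genes numbered 4 of 42, 6 of 70 and 12 of 134 in QCM and 0 of 4, 10 of 30 and 8 of 86 in SCM. They made up 8.57 to 9.52% of cluster 11 in the QCM samples and 9.30% in SCM replicate 3, and 33.3% in SCM replicate 2, which stood apart. SCM replicate 2 was also the highest sample for Rgs13, St18, Dgki and Avil. Among the other 4 samples the share was 8.57 to 9.52% and Dgki was 112 to 619 CPM. These shares rest on 4 to 12 nuclei per sample, so they cannot show how far the mix and the levels go together. They were not thinned, and a share of nuclei is not the weight of these nuclei in a sum of UMIs. Nuclei with at least 4 genes had 3659 to 46845 UMIs in SCM replicate 2 and 1814 to 4170 in SCM replicate 3. In the QCM samples they had 1322 to 83345 UMIs. As a share of all nuclei, those with at least 4 genes were 0.106%, 0.0757% and 0.118% in QCM and 0%, 0.199% and 0.0738% in SCM. The 0 of 430 nuclei in SCM replicate 1 allows a share of up to 0.698%, and that replicate could not show a difference of this size. The part of this mix in the levels of cluster 11 was not tested.

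The share of nuclei with a UMI of 2 or more of the 9 genes, each nucleus thinned to 1000 UMIs, averaged 0.161 ± 0.0928% over the QCM samples and 0.130 ± 0.133% over the SCM samples (SD, n = 3 each). By sample it was 0.0989%, 0.117% and 0.268% in QCM and 0%, 0.266% and 0.126% in SCM. Thinning left out 0 to 1876 nuclei per sample. Thinned to 500 UMIs, which left out 1 nucleus in all, the direction turned, with 0.0761 ± 0.0514% in QCM against 0.143 ± 0.0648% in SCM (SD, n = 3 each). By sample it was then 0.0409%, 0.0523% and 0.135% in QCM and 0.210%, 0.140% and 0.0803% in SCM. The highest, SCM replicate 1, had 429 nuclei and stood at 0% when thinned to 1000 UMIs. Without thinning the shares were 2.06%, 0.378% and 0.552% in QCM and 2.56%, 1.03% and 0.295% in SCM, and the 2 libraries numbered 1 were the highest.

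Outside cluster 11, 8 of the 9 genes passed the count filter and Sh2d6 did not. The edgeR test called 0 of the 8, on a background of 0% of 19005 genes, with 0 of the 8 and 858 of all genes at an unadjusted p under 0.05, and neither DESeq2 nor voom called any of the 8. The log2 fold changes ran from -0.78 ± 0.67 (SE) for Pou2f3 to 0.54 ± 0.77 (SE) for Dclk1. With samples left out in turn, the value for Dclk1 ran from 0.054 to 1.56. Avil, which overlaps Tsfm, was 1.13, 1.88 and 2.14 CPM in QCM and 2.47, 3.46 and 2.18 CPM in SCM. All SCM samples were above all QCM samples, which held for no other of the 8, and the media did not overlap, in either direction, for 7.11% of the genes tested. Its log2 fold change was 0.53 ± 0.38 (SE; edgeR adjusted p = 0.929), and 0.31 to 0.69 with samples left out in turn. In cluster 9, 3 of the 9 passed the filter, and 0 were called on a background of 0% of 10250 genes (309 at an unadjusted p under 0.05, none of them among the 3). The media did not overlap for 0 of the 3 and for 17.1% of all genes tested there. St18 in cluster 9 was 121, 277 and 112 CPM in QCM and 263 and 256 CPM in SCM, with QCM replicate 2 above both. The log2 fold change of St18 there was 0.58 ± 0.34 (SE; edgeR adjusted p = 0.966), and 0.39 to 1.04 with samples left out in turn. In cluster 10, St18 alone passed the filter. It was 37.3, 32.2 and 39.4 CPM in QCM and 24.5 and 27.8 CPM in SCM, on 6 to 16 UMIs per sample, and was not called (log2 fold change -0.69 ± 0.47, SE; edgeR adjusted p = 0.721), on a background of 0% of 6302 genes and 462 at an unadjusted p under 0.05. Both SCM samples were below all QCM samples, and the media did not overlap for 27.3% of the genes tested in cluster 10.

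Other genes of the tuft pathways were read from lists. Of 11 genes of taste-type transduction, Itpr2, a calcium release channel of internal stores, had the highest level in cluster 11, with 225 CPM against 60.1 CPM outside clusters 9 and 11, and 265 of its 328 UMIs there lay in the 40 nuclei with at least 4 of the 9 genes. Itpr3 (89.7 against 82.8 CPM) and Trpm4 (49.98 against 55.7 CPM) came next. The tuft factors Hmx2 and Hmx3 had 5.48 and 4.11 CPM in cluster 11, on 8 and 6 UMIs, and Runx1, a factor known from blood formation, had 147 CPM against 73.5 CPM.

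Of 7 genes of eicosanoid synthesis, which makes leukotrienes and prostaglandins, the phospholipase gene Pla2g4a had 164 CPM in cluster 11 against 88.2 CPM outside clusters 9 and 11. Hpgds had 52.0 against 35.4 CPM, and Ltc4s had 8.90 against 2.44 CPM on 13 UMIs. Alox5 had no UMI in cluster 11, which allows up to 3 UMIs, and Il25 had none there either and 3 in all other nuclei. Among 9 immune and cholinergic effectors, the interleukin 13 receptor subunit Il13ra1 had 86.3 CPM in cluster 11 against 27.5 CPM. Il17rb had 17.1 against 15.8 CPM, and Il4ra 11.6 against 10.6 CPM. None of these lists had a gene called between media in all nuclei or in cluster 11: of the taste-type, factor, eicosanoid and effector genes, 6, 1, 6 and 3 were tested in all nuclei and 3, 1, 2 and 1 in cluster 11. Their median log2 fold changes in all nuclei were -0.04, 0.84, 0.32 and 0.13, beside -0.01 for all genes tested, and the second is Runx1 alone (0.84 ± 0.21, SE; edgeR adjusted p = 0.927).

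Relatives of the 9 genes were read in the same way. Of 19 paralogs, Trpm7 had 232 CPM in cluster 11 and 213 CPM outside clusters 9 and 11, Vil1 had 200 and 199 CPM, and Pou2f1 had 140 and 131 CPM. The next 4 were chosen after their values were seen. Dclk2 and Dclk3, relatives of Dclk1, had 9.59 and 6.16 CPM in cluster 11 against 1.24 and 1.02 CPM, on 14 and 9 UMIs. Myt1 and Dgkb stood at 64.0 and 32.8 CPM in cluster 9 and at 2.05 CPM each in cluster 11. Myt1 is a relative of St18 and Dgkb a relative of Dgki. No paralog was called between media, of 17 tested in all nuclei and 6 in cluster 11.

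The genes whose level over the 15 clusters was most like each of the 9 were sought among 17313 genes with at least 100 UMIs, by Pearson's r of log2(CPM + 1). The points share depth and clustering, and r is given as a description. The antisense gene 1700111E14Rik came first for Dgki (r = 0.98), which it overlaps, and also for Lrmp (0.97), Rgs13 (0.95) and Trpm5 (0.88), with Nkd1 second for Dgki (0.94) and Lrmp (0.93), Kctd12 for Rgs13 (0.93) and Inpp5d for Trpm5 (0.87). Dclk1 was closest to the potassium channel gene Kcnd3 (0.97) and to Plxna4 (0.95), and St18 to Nrep (0.95) and Kcnh8 (0.93). Pou2f3 was closest to the adaptor gene Fyb (0.91) and Avil to Nebl (0.93), and the second gene for Pou2f3, Avil and Sh2d6 was Gm26778 (0.89, 0.92 and 0.90).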

How the data were processed

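The deposited files hold UMI counts per gene and nucleus for 6 samples, made by the authors with Cell Ranger (version 2.1.1 in the processing notes) on mm10, after nuclei with outlying values were removed, and a table with the cluster of each nucleus (Leiden clustering after Harmony). The deposited log values and the files of the whole series were not used. All 38154 nuclei were kept and no doublet caller was run. Symbols were matched for 31244 of 31319 Ensembl identifiers.

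Nuclei are not replicates, so counts were summed per sample and compared with the edgeR quasi-likelihood test (edgeR 4.0.16 in R 4.3.3), with TMM scaling, filterByExpr and Benjamini-Hochberg adjustment over all genes tested. Samples with at least 10 nuclei of a cluster entered. SE is the log2 fold change divided by the root of F. Labels do not say whether replicates were separate cultures, so p-values measure the spread between these samples, which may be technical. Thinning drew UMIs without replacement, 20 times. Wilson intervals and limits from a count of 0 (3 counts) cover counting error only. Alternatives were DESeq2 1.42.0, voom and limma 3.58.1, other scaling and filters, a replicate block, samples left out and the 5% deepest nuclei left out.

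The 9 genes, lists, markers and tests were chosen with earlier results of these data known. The genes named were the 9, the 2 genes most like each over the clusters, and in each list the 3 with the highest CPM in cluster 11 and any called, unless said otherwise; some genes that this rule or the marker lists hold are not reported here. Deviations of same-numbered samples from their group means correlated at 0.36, 0.46 and -0.09 over 19046 genes. Deviations from a group mean cancel out within a medium, so these correlations are tied to each other and cannot settle whether replicate numbers pair the samples. The main fits did not treat the samples as paired, and a replicate block is given as an alternative.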

Additional observations from a re-analysis of the deposited data

How the results depend on the processing

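No alternative called any of the 9 genes between media in all nuclei, outside cluster 11 or in clusters 9 and 10; counts were 0 with each replicate left out in turn, also in cluster 11. Depth per nucleus and the 4 nuclei of SCM replicate 1 limit cluster 11, and a lone SCM sample was assumed to vary like the others.

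The replicate block called 2 genes in cluster 11, St18 (1.06) and Rgs13 (1.10 on the log2 scale), and changed no other call among the 9. In clusters 9, 10 and 11, which SCM replicate 1 did not enter, only replicates 2 and 3 carried the blocked contrast. Blocked, the share of cluster 11 was -0.57 on the log2 scale (edgeR adjusted p = 0.454). Only replicates 1 and 2 correlated best with their own number.

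None of the log2 values below was called. In all nuclei, Dclk1 turned to 0.0038 with library size alone, 0.34 with voom and 0.25 with the block, Sh2d6 to 0.0059 with voom, and Dgki to -0.026 with DESeq2, -0.30 with the block and -0.034 without the deepest nuclei. In cluster 11, Dclk1 turned to -0.11 and Lrmp to -0.19 with the block, Dclk1 to -0.16 with all 6 samples, and they stood at -0.29 and -0.26 in replicates 2 and 3 alone (chosen after seeing the data), where Dclk1, Rgs13, Lrmp and St18 outside cluster 11 turned to -0.18, 0.077, 0.18 and -0.019. There Rgs13 (-0.03) also turned to 0.16 with library size alone, 0.046 with voom and 0.12 with the block. With replicates left out, Dclk1, Rgs13, Sh2d6, Lrmp and Dgki spanned -0.48 to 1.03, -0.11 to 0.52, -1.06 to 0.61, -0.77 to 0.085 and -0.84 to 0.75 in all nuclei, Dclk1, Pou2f3 and Lrmp -0.43 to 1.21, -0.46 to 1.07 and -0.60 to 1.49 in cluster 11, Rgs13 -0.41 to 0.47 in cluster 9 and Pou2f3, Rgs13 and Dgki -1.16 to 0.12, -0.37 to 0.21 and -1.02 to 0.18 outside cluster 11. The causes were not tested.

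The share of cluster 11 stayed lower in SCM, by -0.44 to -0.22 percentage points with replicates left out and by -0.41 in replicates 2 and 3. For nuclei with 2 or more of the 9 genes, SCM minus QCM was 0.30 percentage points without thinning and 0.067 thinned to 500 UMIs, against -0.03 at 1000, and -0.10 to 0.03 with replicates left out. For nuclei with at least 4, it was 0.15 in any cluster and 0.0042 without cluster 14, against -0.0089 in cluster 11, where it was -0.063 to 0.037 with replicates left out. Without a low-count filter, 7 of all genes rose and 63 fell in cluster 11, 13 and 66 in cluster 9 and 8 and 110 in cluster 10, and the block called 24 up and 184 down in cluster 9, against 0. Without QCM replicate 2, 31 fell in cluster 10.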
